A study of Rattus norvegicus with 10 samples.

Results

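Glutathione transferases were read in the abdominal aorta of BN (Brown Norway) and LOU rats as every probe set annotated to Gsta4, Gstm1, Gstm2, Gstm5, Gstp1, Gstt1, Gstt2, Gsto1 or Mgst1. Each of the 9 genes had 1 probe set, out of 15866 probe sets and 10411 named genes on the Affymetrix 3′ expression array. The BN and LOU groups held 5 arrays each, from untreated animals with a labelled age of 5 weeks, and the growth notes gave 18 weeks as the oldest age kept. The tissue label was abdominal aorta throughout, the extraction notes also spoke of thoracic aorta, and whether the arrays stand for separate animals is not labelled. The spread that p-values measure is then only that among these arrays, and may be technical.

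These enzymes join the tripeptide glutathione to electrophiles such as lipid aldehydes and epoxides, which makes them soluble and ready for export. Cytosolic forms are grouped in classes by sequence: alpha (Gsta), mu (Gstm), pi (Gstp), theta (Gstt) and omega (Gsto). Mgst1 belongs to a separate family of membrane proteins. In the artery wall they are known for clearing products of lipid peroxidation, and many are switched on by the transcription factor Nrf2 (gene Nfe2l2) through antioxidant response elements (AREs) in DNA.

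RefSeq promoters on GRCr8, an assembly that is itself from a BN rat, matched 7 of the 9 genes. The 250 bases before the annotated start were searched on both strands for the ARE core TGACNNNGC and for TGACTCA, the site of AP-1 factors. The letters of the ARE core were present in 2 of the 7 windows, those of Gstm5 and Gstp1, and in 10.1% of the 33469 promoters in the table. TGACTCA was present in the same pair of windows and in 4.05% of all promoters. The windows of those genes are shown with each match in capitals, and that of Gstm2, which had no match, is shown because it had the smallest p of the members. The Gstp1 window lies at chr1:210769706-210769955 on the minus strand, that of Gstm5 at chr2:198219519-198219768 on the plus strand and that of Gstm2 at chr2:198316918-198317167 on the minus strand.
Gstp1: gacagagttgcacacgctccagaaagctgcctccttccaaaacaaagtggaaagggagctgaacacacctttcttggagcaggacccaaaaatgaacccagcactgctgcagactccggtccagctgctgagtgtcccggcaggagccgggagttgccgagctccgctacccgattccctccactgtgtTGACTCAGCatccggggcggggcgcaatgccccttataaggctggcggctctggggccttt
Gstm5: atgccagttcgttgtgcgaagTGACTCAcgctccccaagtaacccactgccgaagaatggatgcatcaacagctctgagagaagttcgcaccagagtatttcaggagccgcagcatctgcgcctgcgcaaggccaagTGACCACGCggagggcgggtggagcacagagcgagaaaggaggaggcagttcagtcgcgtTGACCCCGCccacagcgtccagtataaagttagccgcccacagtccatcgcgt
Gstm2: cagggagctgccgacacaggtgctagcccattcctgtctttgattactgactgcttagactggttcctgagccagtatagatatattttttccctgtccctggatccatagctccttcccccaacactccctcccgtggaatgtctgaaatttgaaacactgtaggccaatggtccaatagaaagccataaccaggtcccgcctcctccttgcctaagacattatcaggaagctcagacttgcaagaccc
In Gstp1 the 2 motifs overlap in TGACTCAGC, whose first base lies 61 bases before the start. In Gstm5 the AP-1 letters begin 229 bases before the start and the first of 2 ARE matches, TGACCACGC, begins 113 bases before it. A match is a description of letters, and no binding was measured.

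The level of bacterial control probes, taken here as background, lay between 21.2 and 49.2 on the 10 arrays, and 69.7% to 81.9% of probe sets were above it. Acta2 and Myh11, which mark smooth muscle, and elastin (Eln) had signals from 8579.1 to 14561.4 on every array. Adipocyte markers were present too, with 10 of 11 measured above background on all arrays, 1 on none, and a summed signal of 4440.7 to 22713.6 in BN and 6103.5 to 26964.0 in LOU. BN array 3 stood apart in Schwann cell and nerve markers, with a mean of 2.75 (log2, centred over the 10 arrays) against −0.21 to 0.20 on the other BN arrays. LOU array 1 stood apart in lymphocyte markers, at 1.56 against −0.25 to −0.07. Striated muscle markers separated the strains, at 0.049 to 0.62 in BN and −0.39 to −0.16 in LOU, with 7 of 12 higher in BN, 5 above background on all arrays, 3 on none and 0 passing the test. Their summed signal was 3450.1 to 6136.8 in BN and 2149.5 to 3533.3 in LOU. Adventitial fibroblast markers ran from −0.47 to −0.06 in BN and from −0.09 to 0.64 in LOU, with 2 of 12 higher in BN and 1 passing, and a summed signal of 35124.8 to 49846.6 in BN and 41997.6 to 56956.3 in LOU. Some lists whose strain ranges overlapped also leaned to a strain. Of brown adipocyte markers 9 of 10 were higher in BN, and 0 of 8 macrophage and 0 of 3 red blood cell markers were. No marker of those lists passed. Of these lists, only the adipocyte and the nerve marker means were used as a term in the strain fit, with values for Gstm2 and Aox1 given below. The part of the other lists in the differences of Gstm2 and Aox1 was not tested. In whole tissue, fewer cells of a type and less RNA per cell cannot be told apart.

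None of the 9 glutathione transferases passed the test between strains. The test was limma on log2 signal with Benjamini-Hochberg adjustment over all 15866 probe sets, of which 0.788% passed at an adjusted p of 0.05 (0.246% higher and 0.542% lower in BN). Before adjustment 1 member, Gstm2, lay under 0.05, where 13.3% of all probe sets did. In no member did the 5 BN signals stand clear of the 5 LOU signals, against 4.18% of all probe sets (1.41% higher and 2.77% lower in BN). The members' median difference, BN minus LOU, was 0.04 (log2), and that of all named genes was −0.02. Without 1 array the members' median ran from −0.038 (LOU array 3) to 0.11 (LOU array 2), with its sign also turned without BN array 2 (−0.00685). A p above the threshold does not show equal levels, so each difference is given with the 95% interval of the fit.

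**Figure D1:**
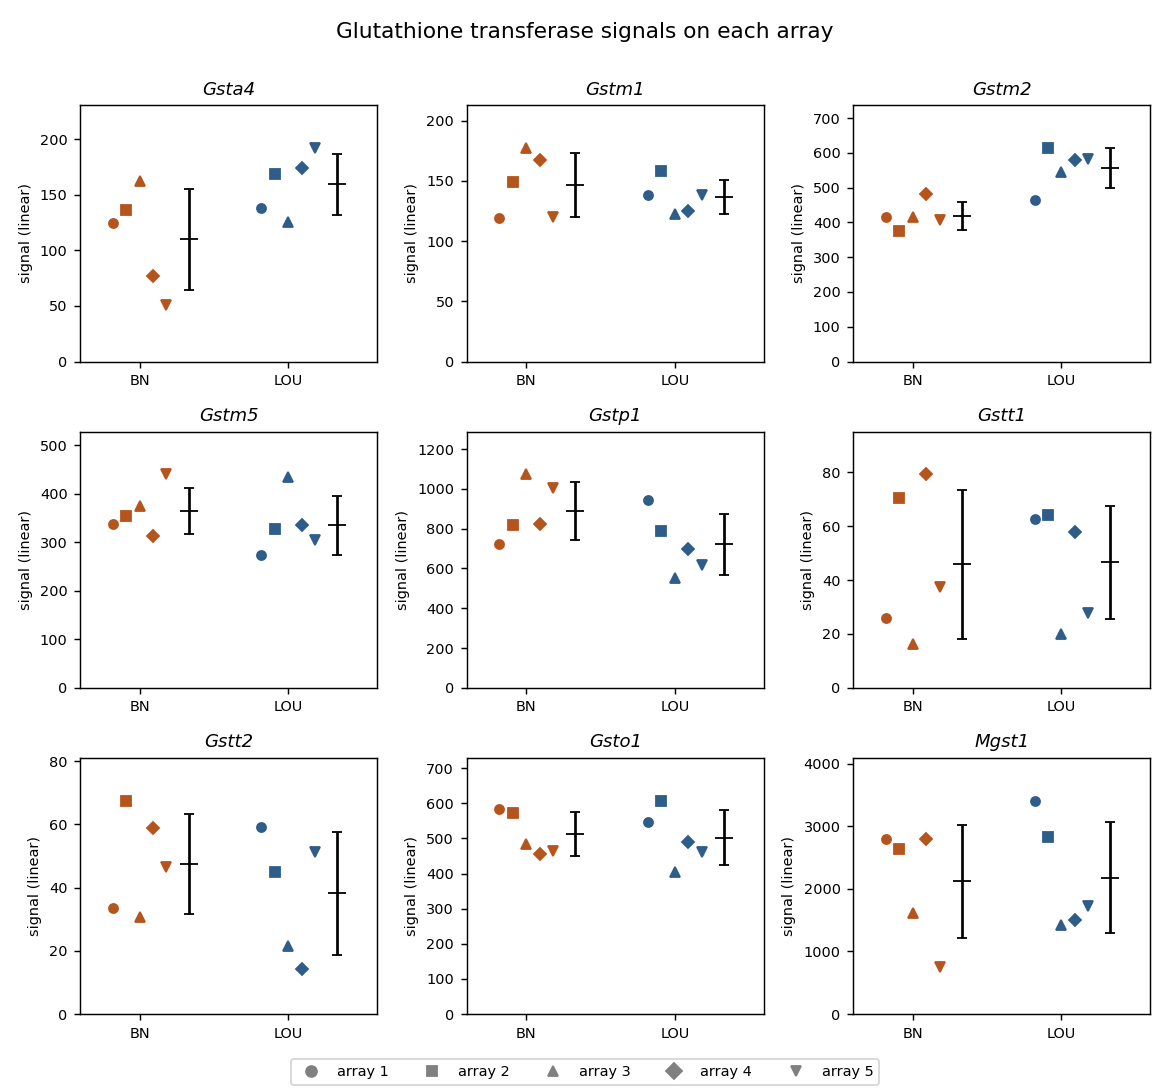
Signal per array on a linear axis from 0, with 1 panel per glutathione transferase, BN arrays in orange-brown, LOU arrays in blue, a marker shape for each array number, and the mean with SD of 5 arrays at the right of each group. Gstm2 has 4 of 5 BN arrays below every LOU array, Gsta4 has BN arrays 4 and 5 far below the rest, and Mgst1 spans 758.4 to 3405.8 with both strains mixed.

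Gsta4, the alpha class enzyme with a preference for 4-hydroxynonenal and related lipid aldehydes, gave signals of 124.3, 136.5, 162.4, 76.6 and 50.4 on BN arrays 1 to 5. On LOU arrays 1 to 5 it gave 138.0, 168.3, 125.2, 174.4 and 192.0. BN arrays 4 and 5 were far below the other 8 arrays, and BN arrays 2 and 3 lay inside the LOU range. Means were 110 ± 45.6 (SD, n = 5) in BN and 160 ± 27.4 in LOU, a log2 difference of −0.64 (SE 0.31, interval −1.32 to 0.04, limma adjusted p = 0.409). It was the member with the largest difference, and its spread within strains was wide, 0.52 (SD, log2), above that of 93.6% of the 10001 probe sets above background on all arrays. Without BN array 5 the difference was −0.39.

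Gstm2, a mu class enzyme, had the smallest p of the members and little spread. It gave 415.6, 374.0, 415.7, 482.1 and 405.9 on BN arrays 1 to 5 and 463.2, 613.8, 544.3, 579.1 and 583.3 on LOU arrays 1 to 5. The strains overlapped through BN array 4 and LOU array 1 alone, so 4 of 5 BN arrays lay below every LOU array. Means were 419 ± 39.4 (SD, n = 5) in BN and 557 ± 57.8 in LOU, a 1.33-fold lower level in BN (log2 −0.41, SE 0.12, interval −0.68 to −0.14). Its limma p was 0.00689 before adjustment, 608 in rank among all probe sets, and 0.178 after it. Its spread within strains, 0.15, was narrower than that of most probe sets above background (percentile 8.69). Over the alternative settings the difference stayed between −0.47 and −0.36 and the adjusted p between 0.0756 and 0.370. With the nerve marker mean as a term in the fit the difference was −0.37.

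The other mu class members had differences near 0. Gstm1, the major mu form of rat liver, gave 119.5, 149.4, 177.1, 167.2 and 120.0 on BN arrays and 138.5, 158.5, 122.6, 125.2 and 138.2 on LOU arrays. The BN signals enclosed all LOU signals, and the difference was 0.09 (interval −0.24 to 0.42, limma adjusted p = 0.840). Gstm5, a mu form best known from brain and testis, gave 338.8, 354.4, 374.2, 313.7 and 440.2 on BN arrays and 273.9, 326.7, 435.4, 334.9 and 304.6 on LOU arrays. BN array 5 and LOU array 3 were its highest, and the difference was 0.13 (interval −0.21 to 0.47, limma adjusted p = 0.758). Fold differences above 1.34 for Gstm1 and 1.38 for Gstm5 in favour of BN lay outside these intervals.

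The mu genes lie next to each other on chromosome 2, in the order Gstm5, Gstm6l, Gstm7, Gstm6, Gstm3l1, Gstm3, Gstm2, Gstm1 and Gstm4 in the annotation, so Gstm2 and Gstm1 are neighbours. The log2 ratios between their probe sets within each array were looked at after these values were seen, so they restate the Gstm2 signals beside those of its relatives and are given as a description, with no test. With the mean of the 10 arrays set to 0, Gstm2 over Gstm5 ran from −0.59 to 0.15 in BN and from −0.15 to 0.46 in LOU. The strain means of this ratio differed by −0.54, and 4 of 5 BN ratios lay below every LOU ratio. Gstm1 over Gstm2 differed by 0.50 and Gstm1 over Gstm5 by −0.04. The scaling of an array cancels in such ratios. Mu genes are related in sequence, and whether any of these probe sets also reads a relative was not tested.

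**Figure D2:**
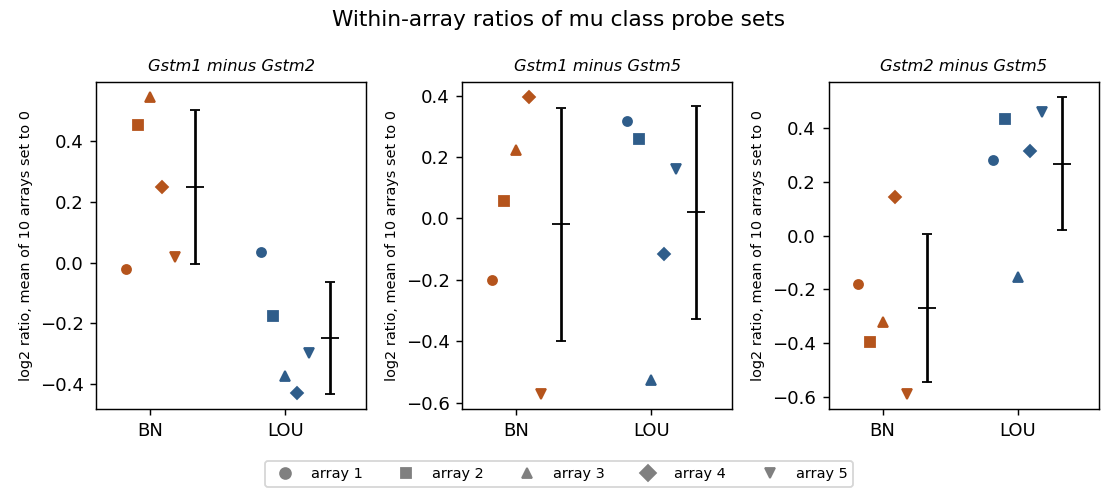
Log2 ratio between mu class probe sets within each array, each panel with the mean of the 10 arrays set to 0, BN in orange-brown, LOU in blue, a marker shape for each array number, and mean with SD of 5 arrays beside each group. The panels that hold Gstm2 are shifted between strains by 0.50 and −0.54, and the panel of Gstm1 and Gstm5 by −0.04.

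Gstp1, the pi class enzyme that is induced in rat liver foci and present in most extrahepatic tissues, had a positive difference that did not pass. Signals were 721.3, 817.4, 1072.9, 824.3 and 1004.2 on BN arrays 1 to 5 and 946.0, 787.6, 554.0, 699.7 and 619.5 on LOU arrays 1 to 5. BN arrays 3 and 5 were above every LOU array and LOU arrays 3, 4 and 5 below every BN array. Means were 888 ± 145 (SD, n = 5) and 721 ± 153, a log2 difference of 0.31 (SE 0.18, interval −0.08 to 0.70, limma adjusted p = 0.490). The brightest array was BN array 3, which also had the nerve marker mean of 2.75. With that marker mean as a term in the fit the difference was 0.13, and without BN array 3 it was 0.24. Of 15 such markers 13 were measured, 12 of them higher in BN, 7 above background on all arrays and 1 passing the test. Their summed signal was 3144.7 to 17017.9 in BN and 2615.9 to 4109.2 in LOU. The part of these markers in the Gstp1 values was not tested further.

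The theta class genes were near background. Gstt1, which acts on small halogenated compounds, was above background on 3 of 5 arrays in each strain, with signals of 25.8, 70.3, 16.4, 79.2 and 37.4 in BN and 62.8, 64.3, 20.0, 57.7 and 27.8 in LOU. Its difference of −0.11 had an interval of −1.22 to 1.00 (limma adjusted p = 0.949), which takes in a 2.33-fold lower and a 2.00-fold higher level in BN. Gstt2 was also above background on 3 of 5 arrays in each strain, at 33.5, 67.5, 30.8, 58.9 and 46.5 in BN and 59.3, 44.9, 21.5, 14.2 and 51.2 in LOU. LOU array 4 was its lowest, and the difference was 0.44 (interval −0.48 to 1.36, limma adjusted p = 0.686). With a floor of 32 before the log2 step it was 0.10.

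Gsto1, an omega class enzyme that reduces dehydroascorbate and arsenic compounds, had the narrowest of the members' intervals that take in 0. Its signals were 584.1, 573.4, 483.1, 456.3 and 465.3 on BN arrays and 548.0, 607.1, 405.3, 488.5 and 460.8 on LOU arrays. LOU arrays 2 and 3 held its highest and lowest signals, so the LOU range enclosed the BN range. Means were 512 ± 61.4 (SD, n = 5) and 502 ± 78.1, a difference of 0.04 (SE 0.14, interval −0.28 to 0.35, limma adjusted p = 0.942). The interval reaches from a 1.22-fold lower to a 1.28-fold higher level in BN.

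Mgst1, a membrane enzyme of the endoplasmic reticulum and mitochondria that protects against lipid hydroperoxides, varied most between arrays among the 7 members above background on all of them. It gave 2792.3, 2636.5, 1617.5, 2788.3 and 758.4 on BN arrays 1 to 5 and 3405.8, 2819.1, 1429.8, 1502.2 and 1722.9 on LOU arrays 1 to 5. LOU array 1 was 4.49-fold above BN array 5, and each strain held bright and dim arrays. Means were 2119 ± 904 (SD, n = 5) and 2176 ± 886, a difference of −0.10 (SE 0.40, interval −0.998 to 0.80, limma adjusted p = 0.942). Its spread within strains, 0.70, exceeded that of 97.5% of the 10001 probe sets above background on all arrays, whose median spread was 0.26. Its sign turned without BN array 5 (0.23) and without LOU array 1 (0.09) or 2 (0.02).

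Mgst1 ran alongside the adipocyte markers within both strains, a relation that missed the threshold after adjustment. The adipocyte means of BN arrays 1 to 5 were 0.64, 0.86, −0.37, 0.43 and −1.17, and those of LOU arrays 1 to 5 were 0.92, 0.18, −0.79, −0.86 and 0.16. After each strain's mean was subtracted, Mgst1 and the adipocyte mean had a Pearson r of 0.93 (permutation p = 0.00132, adjusted p = 0.0594) and a Spearman rho of 0.94 (permutation p = 0.00146, adjusted p = 0.0656) over the 10 arrays. The p-values come from all 14400 permutations within strains and are adjusted over 45 relations, the 36 pairs of members and each member with the adipocyte mean. These relations were not planned. Only the adipocyte list, out of several marker lists, was correlated with the members, so the adjustment leaves that choice out. None of the 45 passed this adjustment. Without the 2 arrays farthest from the median, BN array 5 and LOU array 4, r for Mgst1 was 0.88, and with any 1 array left out it was 0.90 to 0.96. Of the other members, Gstm5 ran against the adipocyte mean, with r = −0.81 (permutation p = 0.00576, adjusted p = 0.0865) and Spearman rho = −0.79 (permutation p = 0.0131, adjusted p = 0.197), and r = −0.83 without the 2 farthest arrays. Mgst1 and Gstm5 themselves had r = −0.78 (permutation p = 0.00333, adjusted p = 0.0750), Spearman rho = −0.82 (permutation p = 0.00625, adjusted p = 0.141), and r = −0.62 without BN array 5 and LOU array 3. With the adipocyte mean as a term in the fit, the strain difference was −0.23 for Mgst1, 0.16 for Gstm5, −0.68 for Gsta4 and −0.40 for Gstm2.

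**Figure D3:**
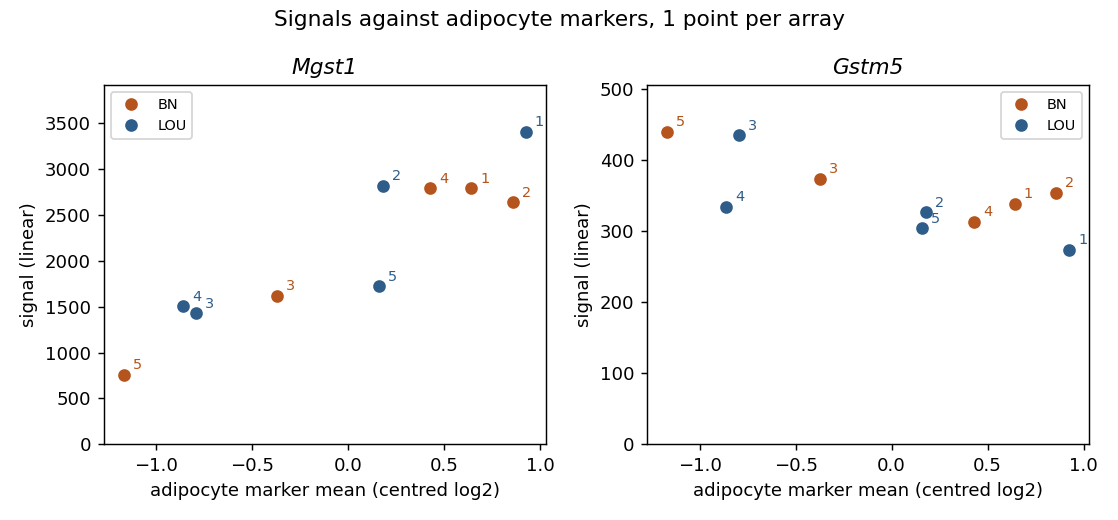
Signal of Mgst1 and of Gstm5 on a linear axis from 0 against the mean of 11 adipocyte markers on the same array (log2, centred over the 10 arrays), 1 point per array with its number, BN in orange-brown and LOU in blue. Mgst1 lies highest at LOU array 1 (marker mean 0.92) and lowest at BN array 5 (−1.17), and Gstm5 is highest at BN array 5.

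**Figure D4:**
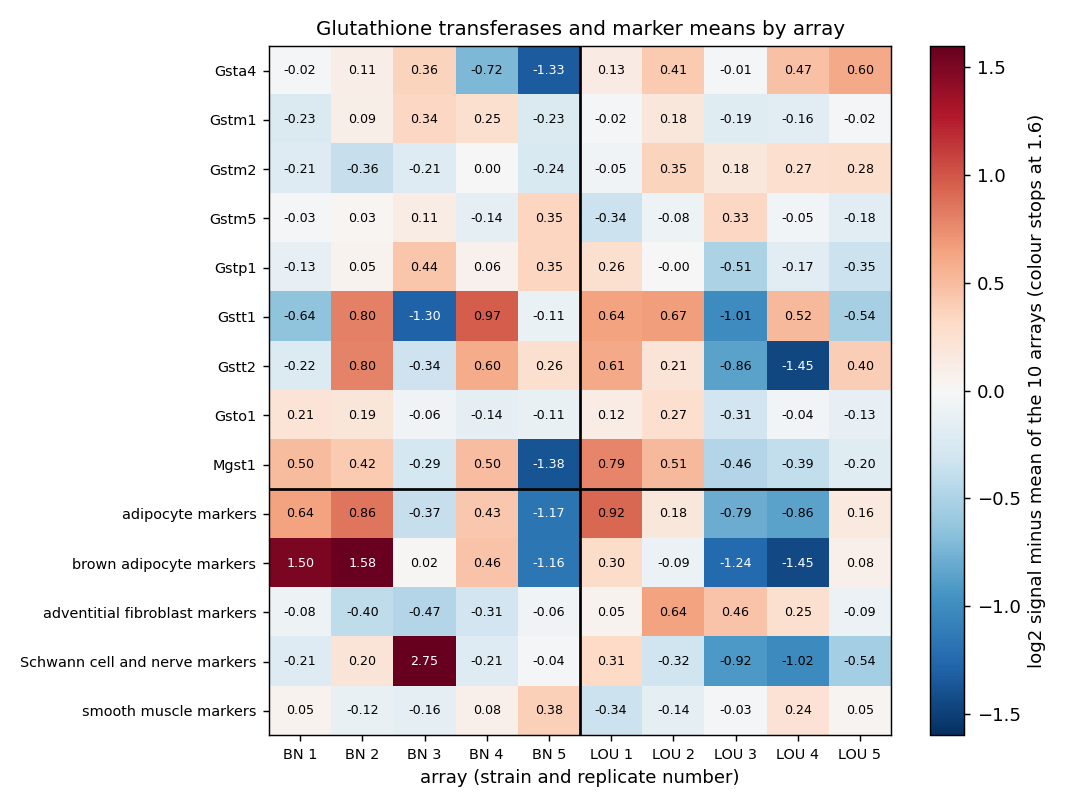
Log2 signal of each glutathione transferase minus its mean over the 10 arrays, above the same for 5 lists of marker genes, with BN arrays left and LOU arrays right. Red is above and blue below the mean, and the row of Mgst1 follows the row of adipocyte markers more closely than any other member does.

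The genes most like each member were found among 7352 named genes above background on all arrays, by Pearson r over the 10 arrays after the strain means were subtracted. They are a description, with no test, of 10 arrays whose tissue marker means varied, as given above. The highest of 7352 values of r over 10 arrays can be high without any relation, and how high was not computed. For Mgst1 they were Ghr, the growth hormone receptor (r = 0.98), Cfd, the adipocyte protease adipsin (0.97), and the peroxisome gene Pex19 (0.97). Cfd is itself on the list of adipocyte markers, so it is not separate from the relation of Mgst1 with their mean. For Gstm5 they were Sdf4 (0.95), Emp2 (0.94) and Zfp18 (0.93), and for Gstm2 Pgpep1 (0.91), Traf7 (0.90) and Dek (0.88). Gstp1 was followed by Adck2 (0.91), Nars1 (0.90) and Slc39a8 (0.89), and Gsta4 by Mapkapk2 (0.93), Plscr1 (0.93) and Camk2b (0.92). Gstm1 went with Rab35 (0.94), Cdc42ep4 (0.92) and Tusc2 (0.90), and Gsto1 with Hhipl1 (0.93), Enpp4 (0.91) and Ttyh3 (0.91). The dim theta genes gave Tmem131 (0.88), Rangrf (0.88) and Gm2a (0.87) for Gstt1 and Mrps28 (0.92), Tbrg4 (0.90) and Ulk2 (0.90) for Gstt2. None of these 27 genes passed the test between strains, with adjusted p-values of 0.0652 and above.

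Of 22 other glutathione transferases and proteins of the Mgst1 family, 14 had a probe set of their own, 10 of them positive and 4 negative with a median of 0.05, and none passed. Among named genes, each read from its brightest probe set, 0.72% passed (0.24% higher and 0.48% lower in BN). Gsta1, another alpha class enzyme, had a BN mean of 384 ± 22.8 (SD, n = 5) and a LOU mean of 642 ± 192 with no overlap (log2 −0.70, limma adjusted p = 0.144). Ltc4s, the leukotriene C4 synthase that joins glutathione to a lipid, was 162 ± 20.8 in BN and 101 ± 16.1 in LOU, also without overlap (log2 0.68, limma adjusted p = 0.0746), and it passed in 5 of 24 alternative settings (adjusted p 0.0259 to 0.286). In the mu cluster Gstm7 differed by 0.55 (limma adjusted p = 0.345), and Gstm4, named after its value was seen, by 0.20 (limma adjusted p = 0.682). Alox5ap, which presents arachidonate to the leukotriene pathway, was above background on 3 BN arrays and 1 LOU array (log2 0.89, limma adjusted p = 0.340), and its difference was 0.29 with a floor of 32 and 0.50 without LOU array 4. Hpgds, the sigma class prostaglandin D synthase, differed by 0.02 (interval −0.48 to 0.53).

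No gene that makes or recycles glutathione passed in the planned fit. Of 22 listed for synthesis, precursor uptake and breakdown, 18 were measured, 6 positive and 12 negative, with a median of −0.08. Gclc and Gclm, the subunits of the rate-limiting ligase, differed by −0.08 and 0.16 (limma adjusted p = 0.866 and 0.737), and a second Gclc probe set gave 0.23. Oplah, which returns 5-oxoproline to glutamate, differed by 0.61, the amino acid carrier Slc1a5 by −0.55 and glutathione synthetase (Gss) by 0.40, with limma adjusted p-values of 0.372, 0.440 and 0.611. Without BN array 5 the Slc1a5 difference was −0.32, and that of Gss was 0.69 without LOU array 1 and 0.26 without LOU array 2. Cth, which supplies cysteine, was not above background on any array. All 19 genes listed as other enzymes that use or reduce glutathione were measured, 12 positive and 7 negative, with a median of 0.18. The largest difference among them was that of Glrx5, a mitochondrial glutaredoxin of iron-sulphur cluster assembly, at 599 ± 131 (SD, n = 5) in BN and 328 ± 73.7 in LOU (log2 0.86, limma adjusted p = 0.0984), and it passed in 4 of 24 alternative settings (adjusted p 0.0181 to 0.274). Msra gave 0.63, the lipid peroxidase Gpx4 0.47 and Gpx8 −0.29, with limma adjusted p-values of 0.221, 0.387 and 0.560. Gpx8 gave −0.19 without BN array 1 or LOU array 3. Msra, a methionine sulphoxide reductase, was on the list but is not usually counted as a glutathione enzyme. Glutathione reductase (Gsr) was above background on 1 array of each strain, so it gave no usable level.

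Known Nrf2 targets went in both directions. Of 38 listed regulators and targets other than glutathione transferases, 29 were measured, with 16 positive and 13 negative and a median of 0.03, and 1 passed. That gene was Aox1, an aldehyde oxidase, which was lower in BN, with means of 198 ± 41.8 (SD, n = 5) against 349 ± 35.0 in LOU and no overlap (log2 −0.84, limma adjusted p = 0.0460). It passed in 10 of the 24 alternative settings, and without 1 array only when that array was BN array 5 (adjusted p 0.0128 to 0.187 over all settings, −0.94 to −0.73). Ptgr1, a reductase of prostaglandins, leukotrienes and unsaturated aldehydes, was higher in BN without overlap, at 91.2 to 293.3 against 21.6 to 74.7, with 3 LOU arrays above background (log2 2.17, limma adjusted p = 0.0518). It passed in 13 of 24 settings, with adjusted p-values from 0.0127 to 0.178. The pentose phosphate genes Taldo1 and Pgd, which help supply NADPH, differed by 0.90 and 0.87 (limma adjusted p = 0.281 and 0.338), and Taldo1 passed in 1 of 24 settings (adjusted p 0.0368 to 0.463). Nfe2l2 itself differed by −0.13 (interval −0.45 to 0.20) and its inhibitor Keap1 by 0.03, with a second Keap1 probe set at −0.30. The classical targets Nqo1, Hmox1 and Txnrd1 differed by 0.01, −0.08 and −0.07, with limma adjusted p-values of 0.979, 0.899 and 0.826. A second Txnrd1 probe set gave −0.12 (interval −0.58 to 0.33).

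Of 31 genes listed for the handling of reactive aldehydes, for other conjugating enzymes and for the export of conjugates, 26 were measured, 11 positive and 15 negative, with a median of −0.15, and none passed. Aldh3a1, an aldehyde dehydrogenase, had a mean of 47.0 ± 10.8 (SD, n = 5) in BN against 110 ± 36.2 in LOU, without overlap (log2 −1.19, limma adjusted p = 0.0528), and it passed in 6 of 23 settings (adjusted p 0.0177 to 0.238). Its BN signals were low, 38.0 to 64.4, with 4 of 5 BN arrays above background, so the size of its difference is uncertain. Aldose reductase (Akr1b1) was 851 ± 150 in BN and 1246 ± 187 in LOU, also without overlap (log2 −0.56, limma adjusted p = 0.166). The microsomal epoxide hydrolase Ephx1 differed by −0.60 (limma adjusted p = 0.387), and by −0.38 without LOU array 2. Akr7a3, an aflatoxin aldehyde reductase, was above background on 2 BN arrays and no LOU array (limma adjusted p = 0.235), too near background for a fold.

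**Figure D5:**
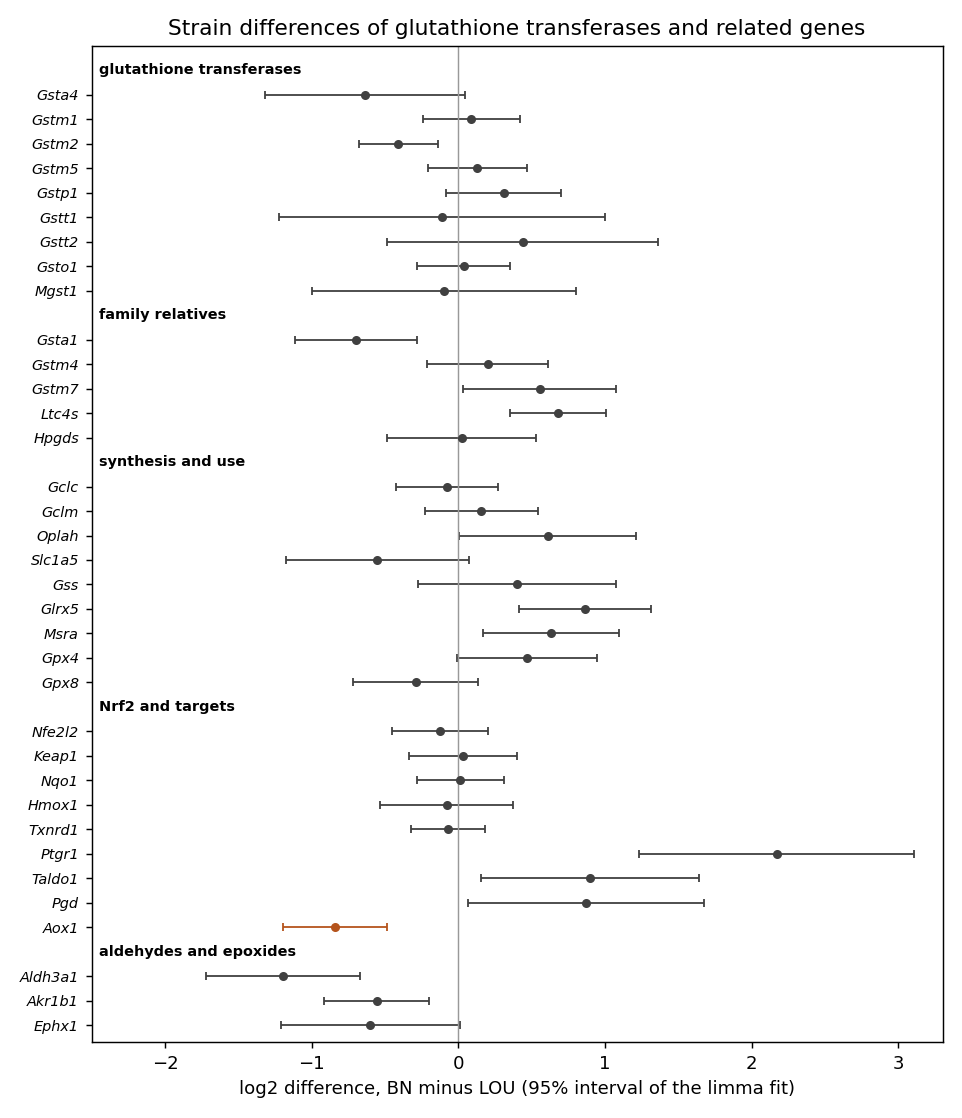
Log2 difference, BN minus LOU, with the 95% interval of the limma fit for the 9 glutathione transferases and for named genes of related lists, where 0 means no difference. Aox1, in orange-brown, is the 1 gene shown that passed at an adjusted p of 0.05, and the intervals of Gstt1 and Mgst1 are among the widest.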

How the data were processed

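Biotin-labelled cRNA from abdominal aorta was hybridised to Affymetrix arrays, per the labels' protocols. The authors deposited linear intensity values, with a single signal for each probe set. Their scaling was read from the values, since the submitters' processing notes name only RMA, without a version. They run up to 22219.9, which log2 values from RMA would not, and were taken as linear signals scaled per array. The planned test used log2, computed here with 4 values of 0 set to 0.1. The strain term was fitted in R 4.3.3 by lmFit and eBayes of limma 3.58.1 (two-sided) over 15866 probe sets, with 57 controls left out. Symbols came from the platform annotation, updated by gene identifier (12748 probe sets) or accession (2) through the RefSeq table, 33 were kept, and 312 with several symbols and 2771 with none were tested but not named. For background, each array's 95th percentile over 45 bacterial controls was taken. All had low signals, and whether they were spiked is not given in the sources used here.

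The members and gene lists were chosen with earlier results of these data known. Named are all members, 10 fixed genes of glutathione and Nrf2 biology (Nfe2l2, Keap1, Nqo1, Hmox1, Gclc, Gclm, Gsr, Txnrd1, Ptgr1 and Hpgds), the tissue genes Acta2, Myh11 and Eln, up to 4 genes with the smallest p of each pathway list, and the 3 most similar genes of each member. The scripts were tested on simulated data. Python 3.11.15 with numpy 2.4.6, pandas 2.3.3, scipy 1.17.1 and matplotlib 3.10.9 made the summaries. Alternatives were other scalings, filters and treatments of low signals, a variance trend, array weights, marker means as terms, gene-level fits, the replicate number as a block, and arrays left out.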

Additional observations from a re-analysis of the deposited data

Results flagged for a closer look

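Outlying arrays were looked for in 52 groups of 5 arrays (the 9 members and 17 list means in each strain), with Dixon's test at the 95% level, which chance passes in about 1 of 20 groups. No member had an outlying array, and 7 list means had one. Schwann cell and nerve markers were outlying on BN array 3, at 2.75 against −0.21 to 0.20 on the other BN arrays. LOU array 1 was outlying in lymphocyte markers (1.56, others −0.25 to −0.07), macrophage markers (0.99, others −0.17 to 0.09) and the list of aldehyde handling, conjugation and export (0.20, others −0.07 to 0.00411). LOU array 2 was highest in endothelial markers (0.45, others −0.16 to −0.01). BN array 5 was lowest in glutathione synthesis genes (−0.17, others −0.03 to 0.03), and BN array 2 was highest in other glutathione-using enzymes (0.28, others 0.02 to 0.07).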

How the results depend on the processing

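No member passed in any of the 24 alternative settings (22 for the theta genes), and Gsta4, Gstm2, Gstm5, Gstp1 and Gstt2 kept their direction in all of them. Gstt1 turned to 0.35 without BN array 3 and LOU array 1 together, 0.22 with the nerve marker mean as a term and 0.091 with array weights, Mgst1 to 0.14 without those 2 arrays and 0.058 with array weights, and Gstm1 to −0.045 with the nerve marker mean. Without 1 array, Gstt1 ran from −0.38 to 0.20, Mgst1 from −0.24 to 0.23, Gsto1 from −0.038 to 0.11, and the ratio of Gstm1 over Gstm5 from −0.18 to 0.099. The ratio of Gstm2 over Gstm5 ran from −0.64 to −0.46 without 1 array and was −0.52 without BN array 3 and LOU array 1 together, and that of Gstm1 over Gstm2 ran from 0.42 to 0.57 without 1 array.

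Of other genes near 0, Hmox1 turned to 0.058 and Eln to 0.013 without those 2 arrays, Nfe2l2 to 0.00972, Gclm to −0.047 and Eln to 0.021 with the nerve marker mean, Eln to 0.012 with median centring, Gsr to −0.12 with a floor of 32, and Keap1 to −0.14 and Gclc to 0.075 with the mean of probe sets. Without 1 array the ranges were −0.010 to 0.13 for Acta2, −0.076 to 0.000399 for Eln, −0.17 to 0.014 for Gclc, −0.18 to 0.089 for Hmox1, −0.11 to 0.17 for Hpgds, −0.053 to 0.12 for Keap1 and −0.074 to 0.081 for Nqo1.

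Over all probe sets 125 passed. The counts were 263 above background in a strain, 253 without the dimmest 40%, 242 with a variance trend, 204 with a pseudocount of 16, 188 with the adipocyte mean, 75 without the 2 arrays and 59 with the nerve marker mean, and 63 to 127 without 1 array. Genes of the 5 pathway lists passing numbered 1 in the main setting, 5 with the filter on background and with a variance trend, 4 without the dimmest 40% and with the pseudocount, 3 with a floor of 32, the adipocyte mean and both gene-level fits, 2 with array weights and quantile normalization, and 0 without the 2 arrays and with the nerve marker mean. Without 1 array they numbered 0 to 3. A fit with the replicate number as a block passed 23 probe sets and 0 pathway genes. Same-numbered BN and LOU arrays had correlations of deviations between −0.0453 and 0.0147, and arrays of unlike number were not compared. Whether the numbers mark anything shared is not labelled, and these values cannot settle it. The causes of these changes were not tested. Signals near background limit Gstt1 and Gstt2.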
